A study of Mus musculus with 6 samples.

Results

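Creatine cycling and calcium cycling are routes by which fat cells can release heat without the uncoupling protein UCP1. The description covers 9 genes of these routes, Gatm, Gamt, Slc6a8, Ckb, Ckmt1, Ckmt2, Alpl, Atp2a2 and Ryr2. They were chosen by name from knowledge of the pathways, with earlier results of these data known. All 9 were measured, by 15 of the 20393 probe sets that name a single gene, and they stand among 12394 genes tested. Subcutaneous white fat was profiled on Affymetrix arrays in YY1bKO mice, which carry floxed Yy1 alleles together with Ucp1Cre (n = 3), and in control mice with the floxed alleles and no Cre (n = 3). All mice were 8 weeks old, of a background mixed from C57BL6 and 129, and had eaten a high fat diet for 2 weeks. Yy1 encodes a zinc finger transcription factor, and Ucp1 regulatory sequences act mainly in thermogenic adipocytes, so the deletion is intended for those cells. The cells in which it took place were not determined here. The labels describe the knockout as specific to brown fat, and these arrays hold no mice with Cre on unfloxed Yy1. The labels do not say that each replicate was a different animal, so the spread behind each p-value may not be that between animals. It includes differences in tissue content between arrays, given below.

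In creatine cycling, creatine is made in steps catalysed by the enzymes encoded by Gatm and Gamt, taken up by the transporter SLC6A8, phosphorylated by creatine kinases and freed again by hydrolysis of phosphocreatine, which spends ATP as heat. In mouse brown fat the brain-type kinase CKB and the phosphatase encoded by Alpl have been placed in this cycle. In calcium cycling, the pump SERCA2, encoded by Atp2a2, moves calcium into the endoplasmic reticulum at the cost of ATP, and the ryanodine receptor RYR2 lets it out again, a route described in mouse beige adipocytes.

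None of the 9 genes differed between YY1bKO and control fat beyond the spread between arrays, in the same arrays in which Ucp1 was 38.2-fold higher in YY1bKO. At an adjusted p under 0.05 in limma, 0 of the 9 were called, where 0.0323% of all genes were. At an unadjusted p under 0.05 the count was also 0 of 9, where 10.4% of all genes were called. The arrays of the groups overlapped in all 9 genes, where they did not overlap in 16.5% of all genes. Among only 9 genes, counts of 0 do not set them apart from these shares. Of the 9, 3 had a log2 difference (YY1bKO minus control) above 0 and 6 below 0, with a median of -0.09 beside 0.0046 over all genes. The adjusted p, by limma with Benjamini-Hochberg adjustment over all genes, lay between 0.693 and 0.989. A p that misses the threshold does not show that the groups were alike, so the 95% confidence interval of each gene is given with its values.

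The arrays had median intensities from 123.15 to 130.35. Adipoq, the adipocyte hormone adiponectin, read 20045, 18131 and 18593 in YY1bKO replicates 1, 2 and 3, against 19325, 15948 and 17014 in control replicates 1, 2 and 3, so every sample held fat. Of 10 brown or beige adipocyte markers 9 were measured, with summed intensities of 7350 to 8128 in YY1bKO and 1678 to 3327 in control. Of them 1, Ucp1, rose past the adjusted threshold in limma. Cidea, of the same list, read 1737.3, 1683.1 and 1931.4 in YY1bKO, against 462.7, 2067.8 and 457.4 in control. Its groups thus overlapped, with control replicate 2 the highest array. Ucp1 read 1610.2 to 2062.0 in YY1bKO and 42.1 to 51.5 in control, a log2 difference of 5.25 with a 95% confidence interval from 4.92 to 5.59. Yy1 read 1118.1, 1357.5 and 1179.3 in YY1bKO against 1287.5, 1469.7 and 1568.2 in control. With a log2 difference of -0.24 ± 0.12 (SE) it missed the threshold (limma adjusted p = 0.574). The other 3 Yy1 probe sets had -0.19, -0.07 and -0.11, and in the first of these every YY1bKO array, at 99.1 to 121.3, lay below every control array, at 121.4 to 129.4. The sources used here do not place these probe sets relative to the floxed stretch, so Yy1 checks the labels only in part. A pair of arrays stood apart in muscle or epithelial genes. YY1bKO replicate 1 had the highest level of 12 of the 17 skeletal muscle genes measured, and control replicate 2 the highest level of 6 of the 8 skin and mammary epithelium genes. The log2 difference of each of the 9 genes is therefore also given without each of this pair. Those of other genes of the wider lists are added where they moved by over 1.5 times. Lymphoid genes also set arrays apart. The B cell list deviated in log2 from its mean over all arrays by -2.44, 1.28 and -0.04 in YY1bKO, against -2.08, 0.95 and 2.33 in control. The T cell list deviated by -1.38, 0.77 and 0.07, against -1.20, 0.45 and 1.29. The part of lymphoid tissue in the values of the 9 genes was not tested. In whole fat, fewer cells of a type and less RNA per cell cannot be told apart.

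YY1 is a DNA-binding factor, so the 250 bases before each start site were searched for its core motif CCATNTT on both strands. RefSeq promoter sequences (GRCm38.p6) were at hand for 7 of the 9 genes, in 9 promoters, and not for Slc6a8 and Atp2a2. The core was found in 1 of these 9 promoters, that of Gatm, while 12.4% of the 32851 promoters in the table hold it. The Gatm stretch lies on the minus strand at chr2:122611278-122611527, read 5′ to 3′ towards the start site, with the core match in capitals, itself on the opposite strand of the stretch.
Gatm: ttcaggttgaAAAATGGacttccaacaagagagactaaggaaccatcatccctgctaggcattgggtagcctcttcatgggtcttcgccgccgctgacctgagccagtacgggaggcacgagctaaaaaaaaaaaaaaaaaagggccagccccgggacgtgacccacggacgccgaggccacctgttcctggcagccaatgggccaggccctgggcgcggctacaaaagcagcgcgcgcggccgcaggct
The extended nuclear receptor half-site AAGGTCA was found in 1 of the 9 promoters (Ckmt1), where 4.08% of all promoters hold it. The cyclic AMP response element half-site TGACG was found in 1 (Alpl), where 17.8% of all promoters hold it. A match describes the letters only.

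Gatm encodes glycine amidinotransferase, which makes guanidinoacetate, the precursor of creatine. Its intensity was 130.9, 102.1 and 90.6 in YY1bKO replicates 1, 2 and 3, against 111.2, 79.0 and 90.4 in control replicates 1, 2 and 3. The highest value was that of YY1bKO replicate 1, and the other YY1bKO arrays lay within the control range. YY1bKO minus control was 0.20 ± 0.19 in log2 (95% confidence interval -0.25 to 0.66, limma adjusted p = 0.765). The ± of each log2 difference, here and below, is the SE from limma. It rests on 3 arrays per group except where an array is left out. The Gatm log2 difference was 0.05 ± 0.18 without YY1bKO replicate 1 and 0.09 ± 0.19 without control replicate 2.

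Gamt encodes guanidinoacetate methyltransferase, which completes creatine. Its intensity was 206.2, 183.0 and 239.3 in YY1bKO, against 324.3, 140.0 and 190.8 in control. The control arrays thus held both the highest and the lowest value, with the YY1bKO arrays between them. The mean intensity was 209.5 ± 28.3 in YY1bKO and 218 ± 95.2 in control (SD, n = 3 each). In log2 the groups differed by 0.02 ± 0.31 (95% confidence interval -0.73 to 0.77). Without control replicate 2 the log2 difference was -0.26 ± 0.25, and without control replicate 1, the highest array, it was 0.35 ± 0.19 (limma adjusted p = 0.800 and 0.385). It was 0.03 ± 0.38 without YY1bKO replicate 1. The genes with the pattern most like that of Gamt over the 6 arrays were Col6a3, a collagen VI chain, Cavin3, a caveolar coat protein, and Fap, a fibroblast protease. Their centred log2 values differed from those of Gamt by root mean squares of 0.062, 0.062 and 0.065, where Gamt itself had an SD of 0.40. They were the nearest of 9873 genes compared over only 6 arrays, and a shared cell source was not tested.

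Slc6a8, the creatine importer, was read by a pair of probe sets. The brighter read 282.8, 214.1 and 271.9 in YY1bKO, against 297.4, 348.7 and 180.3 in control. The YY1bKO arrays again lay inside the control range, whose top was control replicate 2. The groups' log2 difference was -0.06 ± 0.26 (95% confidence interval -0.70 to 0.58), 0.13 ± 0.25 without control replicate 2 and -0.14 ± 0.31 without YY1bKO replicate 1. The dimmer probe set read 96.9, 81.5 and 90.4 in YY1bKO and 79.5, 98.3 and 85.1 in control, with a log2 difference of 0.03 ± 0.12.

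**Figure D1:**
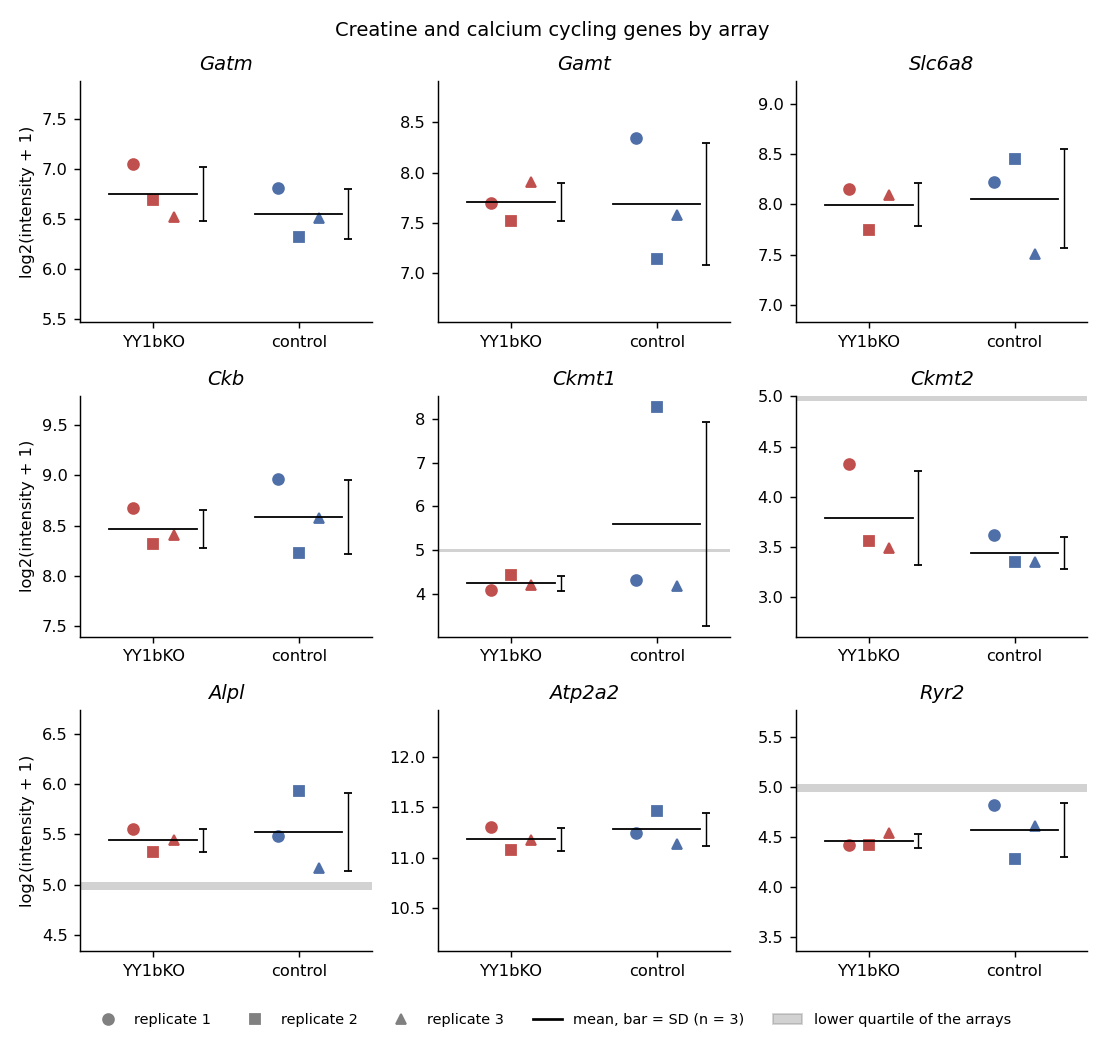
Level of each of the 9 genes on each array as log2(intensity + 1), YY1bKO left and control right, with symbols for replicates 1 to 3, lines for means and bars for SD (n = 3). The groups overlapped in every panel, Ckmt1 stood out in control replicate 2 alone, and the grey band marks the lower quartiles of the 6 arrays, near which or below which Ckmt1, Ckmt2, Alpl and Ryr2 lay.

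Ckb encodes the brain-type creatine kinase. Its intensity was 407.9, 316.9 and 337.2 in YY1bKO, against 499.0, 299.2 and 379.5 in control. Replicate 1 was the highest array within each group, and the YY1bKO range fell inside the control range. YY1bKO minus control came to -0.13 ± 0.21 in log2 (95% confidence interval -0.63 to 0.38; limma adjusted p = 0.872). On the fold scale that interval ran from 0.645 to 1.30. Without control replicate 2 the log2 difference was -0.31 ± 0.18, and without control replicate 1, the highest array, it was 0.06 ± 0.17. It was -0.23 ± 0.23 without YY1bKO replicate 1. In B cell genes the summed intensity of the 6 measured, of 7 listed, was 272.4, 4295 and 1579 in YY1bKO and 325.9, 3359 and 8956 in control, lowest in replicate 1 of each group, where Ckb was highest. None of the 6 was at or below the lower quartile on all arrays. The part of lymphoid tissue in the Ckb value was not tested.

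Ckmt1, the ubiquitous mitochondrial creatine kinase, had the widest spread of the 9 genes, and a single control array set it. The brighter probe set read 15.9, 20.4 and 17.5 in YY1bKO, against 18.9, 310.3 and 17.2 in control. The dimmer probe set read 21.4, 20.6 and 21.9 in YY1bKO, against 23.4, 110.2 and 20.9 in control. Both were high in control replicate 2, and every other reading of both probe sets lay below the lower quartile of its array. For the brighter probe set the log2 difference was -1.36 ± 1.09 (95% confidence interval -4.02 to 1.30; limma adjusted p = 0.729). Without control replicate 2 it was -0.01 ± 0.14, with an interval from -0.36 to 0.33, and without YY1bKO replicate 1 it was -1.28 ± 1.33.

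Of the 8 genes in the skin and mammary epithelium list, 6 were highest in control replicate 2, as Ckmt1 was. In 2 of the 8 the log2 difference was above 0, unlike that of Ckmt1. By limma, 1 of the 8 was higher in YY1bKO at an unadjusted p under 0.05, where 8.45% of all genes were. The summed intensity of the 8 genes of that list, all measured, was 223.0, 461.3 and 285.9 in YY1bKO and 233.3, 10415 and 243.2 in control. None of the 8 was at or below the lower quartile on all arrays. The genes with the pattern most like that of Ckmt1 were Esrp2, an epithelial splicing regulator, Serpinb5, the epithelial protein maspin, and S100a14, an epithelial calcium-binding protein. Their centred log2 values differed from those of Ckmt1 by root mean squares of 0.087, 0.11 and 0.11, where Ckmt1 had an SD of 1.65. They were the nearest of 9874 genes compared over the 6 arrays. Control replicate 2 was also the highest array for Slc6a8, Alpl and the brightest Atp2a2 probe set, while it was the lowest for Gatm, Gamt, Ckb and Ryr2 and, tied with control replicate 3, for Ckmt2. The part of epithelium in these other values was not tested.

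Ckmt2, the sarcomeric mitochondrial creatine kinase of striated muscle, lay below the lower quartile on all 6 arrays. Its intensity was 19.1, 10.8 and 10.2 in YY1bKO, against 11.3, 9.2 and 9.2 in control. YY1bKO replicate 1 was the only array that stood above the others, and the remaining YY1bKO arrays read between the lowest and the highest control array. This gave a log2 difference of 0.35 ± 0.24 (95% confidence interval -0.24 to 0.94; limma adjusted p = 0.693). Without YY1bKO replicate 1 it was 0.08 ± 0.14, with an interval from -0.26 to 0.43, and without control replicate 2 it was 0.31 ± 0.29. Values this dim are compressed by the array processing, so a true difference may be larger than the measured value.

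Skeletal muscle genes were high in the array that held the highest Ckmt2 value. The summed intensity of the 17 muscle genes measured, of 18 listed, was 6775, 1839 and 2962 in YY1bKO and 1746, 2412 and 1687 in control, and 2 of the 17 were at or below the lower quartile on all arrays. Ckm, the muscle-type cytosolic creatine kinase, read 447.2, 60.2 and 53.9 in YY1bKO, against 71.0, 63.0 and 55.7 in control. Myh4, a fast myosin heavy chain, read 454.2, 10.1 and 9.4 in YY1bKO and 17.9, 18.3 and 11.9 in control. Both stood out in YY1bKO replicate 1 alone, whereas Acta1, skeletal muscle actin, was 1569.2, 524.3 and 1572.0 in YY1bKO and 312.7, 181.0 and 297.7 in control. Acta1 thus did not overlap between the groups, although it missed the threshold (log2 difference 2.08 ± 0.48, limma adjusted p = 0.251). The part of muscle in the Ckmt2 value was not tested beyond leaving that array out.

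**Figure D2:**
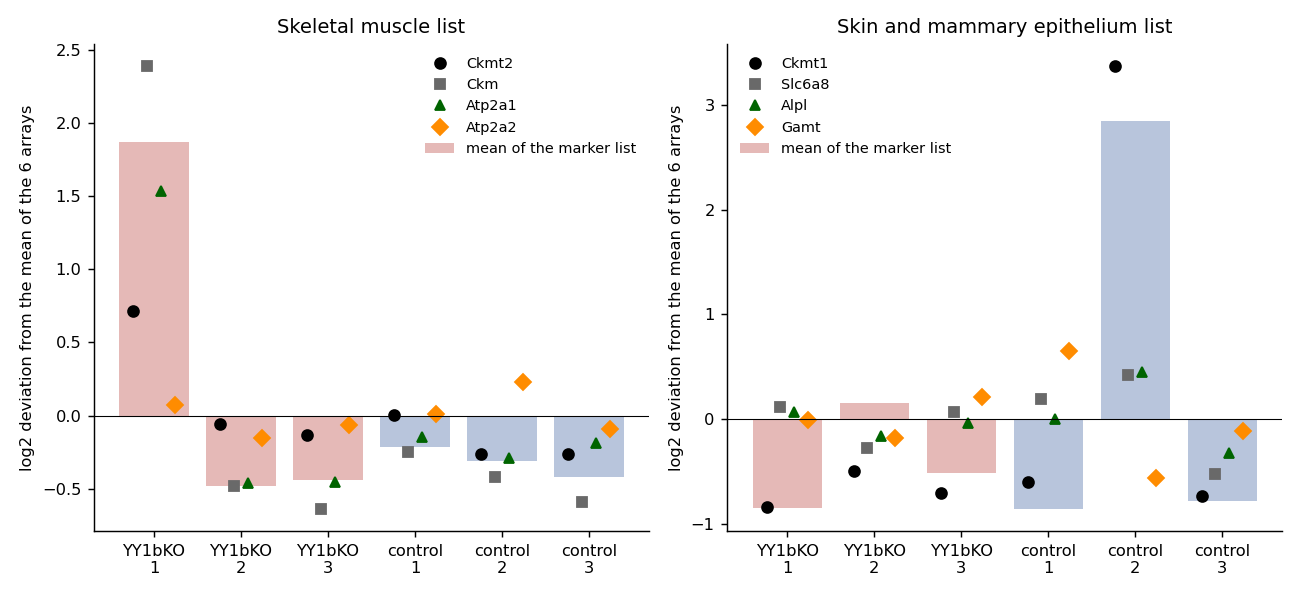
Bars show the mean log2 deviation of a marker list from its mean over the 6 arrays, and points the same deviation for single genes, with YY1bKO arrays left of control arrays. Ckmt2, Ckm and Atp2a1 were highest in YY1bKO replicate 1, where the skeletal muscle list deviated by 1.87, and Ckmt1 in control replicate 2, where the skin and mammary epithelium list deviated by 2.84.

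Alpl encodes tissue-nonspecific alkaline phosphatase. Its intensity was 45.9, 39.0 and 42.6 in YY1bKO, against 43.7, 60.2 and 34.8 in control, just above the lower quartiles of 29.9 to 31.7. The 3 YY1bKO arrays lay within a narrow range inside that of the controls. YY1bKO differed from control by a log2 value of -0.09 ± 0.20 (95% confidence interval -0.58 to 0.41). It was 0.12 ± 0.14 without control replicate 2, the array with the highest value, and -0.14 ± 0.25 without YY1bKO replicate 1.

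Atp2a2, the gene of the SERCA2 calcium pump, had 4 probe sets, and they gave log2 differences of unlike sign. The brightest read 2525.2, 2160.8 and 2306.3 in YY1bKO, against 2423.4, 2825.4 and 2255.3 in control. Its log2 difference of -0.10 ± 0.12 had the narrowest interval of the 9 genes, from -0.39 to 0.20, or 0.761-fold to 1.15-fold. Without YY1bKO replicate 1 it was -0.16 ± 0.14, and without control replicate 2 it was -0.01 ± 0.11. The other probe sets had YY1bKO means above the control means. The next in brightness read 932.2, 719.7 and 772.8 in YY1bKO and 780.5, 683.6 and 562.7 in control. The third in brightness read 579.8, 403.3 and 465.3 in YY1bKO and 468.2, 374.3 and 323.7 in control. The dimmest read 206.9, 147.1 and 161.9 in YY1bKO and 174.7, 137.0 and 106.0 in control. In each of these 3 the highest array was YY1bKO replicate 1 and the lowest was control replicate 3, and the groups overlapped. The remaining YY1bKO arrays of each lay within the control range. These 3 probe sets were not fitted without YY1bKO replicate 1, so how far their values rest on that array was not tested. Tested one by one over all probe sets, with YY1bKO replicate 1 included, their log2 differences were 0.26 ± 0.16, 0.31 ± 0.19 and 0.32 ± 0.22 (limma adjusted p = 0.668, 0.665 and 0.709). The mean of the 4 probe sets gave 0.20 ± 0.16 (limma adjusted p = 0.749). The sources used here do not say which transcript forms each probe set reads.

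**Figure D3:**
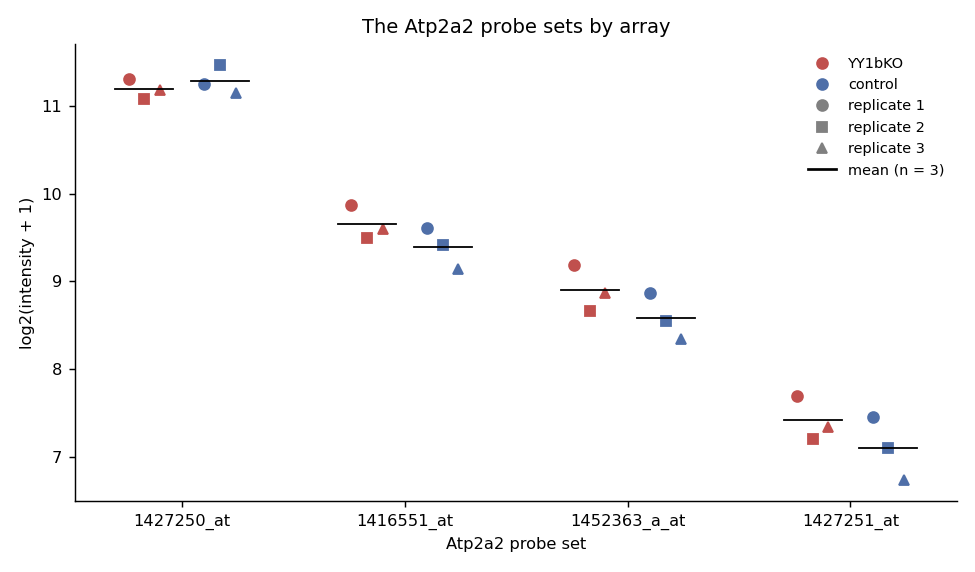
Each of the 4 Atp2a2 probe sets on each array as log2(intensity + 1), YY1bKO left of control, in order of brightness from left to right, with lines for means (n = 3) and symbols for replicates. The brightest probe set had its highest value in control replicate 2, and the other 3 had theirs in YY1bKO replicate 1, with overlapping groups in all 4.

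Ryr2 encodes the cardiac-type ryanodine receptor, the release channel of calcium cycling. It lay below the lower quartile on all 6 arrays, at 20.4, 20.4 and 22.3 in YY1bKO against 27.2, 18.5 and 23.4 in control. The YY1bKO arrays lay inside the control range. In log2, YY1bKO minus control was -0.11 ± 0.15 (95% confidence interval -0.48 to 0.26), and the dimmer probe set gave 0.08 ± 0.18. Without control replicate 2 the log2 difference was -0.25 ± 0.11, with a limma adjusted p of 0.572, and without YY1bKO replicate 1 it was -0.09 ± 0.19. It turned to 0.01 ± 0.13 without control replicate 1. At this signal a level cannot be told from the dim end of the array.

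Leaving out YY1bKO replicate 1 or control replicate 2 brought no call. Without YY1bKO replicate 1, 3 of the 9 log2 differences were above 0 and 6 below, with a median of -0.14 beside 0.0079 over all genes. In that fit 0 of the 9 passed an adjusted p under 0.05 in limma, where 0.00807% of all genes did. At an unadjusted p under 0.05, 0 of 9 were called, where 6.24% of all genes were. Without control replicate 2, 4 were above 0 and 5 below, with a median of -0.0073 beside -0.0084 over all genes. There, 0 of 9 passed by adjusted p in limma (0.0403% of all genes) and 0 by unadjusted p (9.62% of all genes). By limma the lowest adjusted p among the 9 was 0.949 without the YY1bKO array and 0.572 without the control array. Over the probe sets, 8 of the 15 were above 0 and 7 below, 0 were free of overlap (15.6% of all probe sets were) and 0 were at an unadjusted p under 0.05 in limma (9.74% of all probe sets were).

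**Figure D4:**
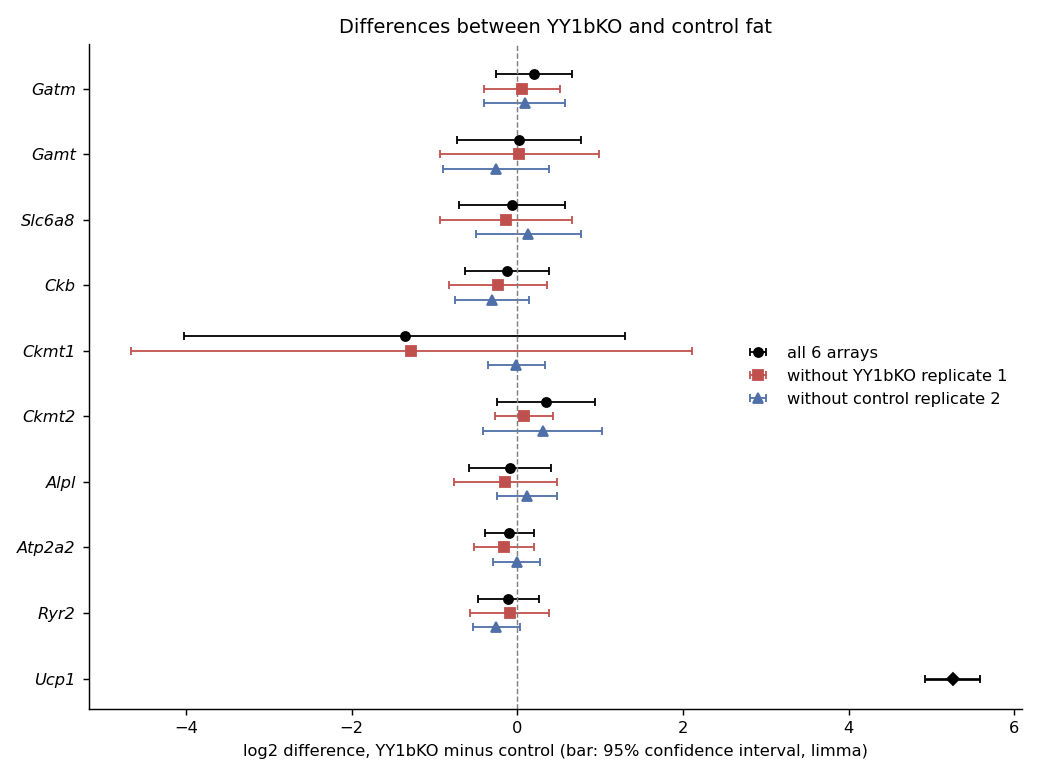
Log2 difference of each gene, YY1bKO minus control, with its 95% confidence interval from limma, for all 6 arrays and without YY1bKO replicate 1 or control replicate 2. Every interval of the 9 genes held 0, that of Ckmt1 narrowed without control replicate 2, and Ucp1 is shown at 5.25 for scale.

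The width of the intervals shows the precision reached by these arrays. For Gatm, Gamt, Slc6a8, Ckb and Alpl the upper ends of the 95% intervals ran from 1.30-fold for Ckb to 1.71-fold for Gamt and the lower ends from 0.602-fold for Gamt to 0.839-fold for Gatm. The Atp2a2 interval depended on the probe set, with an upper end of 1.15-fold for the brightest and of 1.57-fold, 1.71-fold and 1.79-fold for the others. Each of the others was tested on its own with YY1bKO replicate 1, their highest array, included. For Ckmt1 the interval ran from 0.0616-fold to 2.47-fold, a width set by control replicate 2. Those of Ckmt1, Ckmt2 and Ryr2 give no bound. Apart from Ckmt1 in control replicate 2, these genes lay in the dim range that the processing compresses. Alpl lay just above the lower quartiles, so its interval may be compressed too. The interval of Ucp1 ran from 30.3-fold to 48.0-fold. The control arrays had the larger SD of log2 values in 7 of the 9 genes, as they did in 74.0% of all genes.

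Among members of the same families, those typical of skeletal muscle were set beside the genes above within each array. The log2 value of Ckb minus that of Ckm was -0.13, 2.38 and 2.62 in YY1bKO replicates 1, 2 and 3, and 2.80, 2.23 and 2.75 in control replicates 1, 2 and 3. The outlying array was YY1bKO replicate 1, in which Ckm was high. Atp2a2 minus Atp2a1, the gene of the fast muscle SERCA1 pump, was 3.29, 5.06 and 5.15 in YY1bKO and 4.91, 5.27 and 4.85 in control, with the same array apart. The differences between the groups were -0.97 for Ckb minus Ckm, -0.51 for Atp2a2 minus Atp2a1, -0.49 for Ckmt2 minus Ckm and 0.06 for Ryr2 minus Ryr1, the skeletal muscle ryanodine receptor. Exact 2-sided permutation tests gave p = 0.4, 0.8, 1 and 0.8 (adjusted p = 1 over the 4 pairs), where 3 against 3 arrays cannot go below 0.1. Without YY1bKO replicate 1 the difference for Ckmt2 minus Ckm was 0.22 (exact permutation p = 0.1, the smallest that 2 against 3 arrays allow; adjusted p = 0.4).

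A wider list of creatine cycling held 16 genes, 15 of them measured, and added the mitochondrial channels and carriers that pass ATP, ADP and phosphate. Adjusted over all genes, 0 of the 15 passed in limma, and 0 were at an unadjusted p under 0.05 in either direction, where 8.45% of all genes were higher and 1.99% lower. Their median log2 difference was 0.02. Of the added genes, Slc25a4, the adenine nucleotide translocase of heart and muscle, had the smallest p. Its log2 values were 12.26, 11.96 and 12.14 in YY1bKO and 12.02, 11.71 and 11.73 in control, so the groups overlapped through control replicate 1. YY1bKO minus control was 0.30 ± 0.13 in log2 (limma adjusted p = 0.509), and its 4 probe sets were all above 0. Slc25a5, the more widely expressed translocase, had a log2 difference of -0.22 ± 0.17, which was -0.05 ± 0.11 without control replicate 2. Slc6a6, the taurine transporter related to SLC6A8, had -0.39 ± 0.21 in its brightest probe set, while its other probe sets had 0.03 and -0.02. Vdac3, an outer membrane channel, had 0.19 ± 0.11, and Slc25a3, the phosphate carrier, 0.09 ± 0.09. Ckm had 0.84 ± 0.80, and -0.14 ± 0.15 without YY1bKO replicate 1. Phospho1 was not among the genes tested.

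A wider list of calcium cycling held 28 genes, of which 21 were measured. In limma 0 of the 21 passed the adjusted threshold, and the median log2 difference was -0.04. Stim1 was higher at an unadjusted p under 0.05 and Casq2 lower, 1 gene each, where 8.45% and 1.99% of all genes were called in those directions. The groups did not overlap in the same genes, 1 higher and 1 lower, where 11.5% and 5% of all genes were free of overlap. Stim1 encodes the endoplasmic reticulum calcium sensor that opens store-operated entry. Its brighter probe set read 430.3, 476.6 and 642.3 in YY1bKO, against 292.4, 327.0 and 321.4 in control. That is a log2 difference of 0.70 ± 0.16 (95% confidence interval 0.30 to 1.10; limma adjusted p = 0.258), and the dimmer probe set, at 309.4, 304.1 and 332.0 in YY1bKO and 250.8, 238.4 and 253.1 in control, did not overlap either. Orai1, the channel that STIM1 opens, had a log2 difference of 0.03 ± 0.12 (0.05 ± 0.15 without YY1bKO replicate 1 and -0.05 ± 0.13 without control replicate 2) and is named after its value was seen.

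Casq2, the cardiac calsequestrin that stores calcium, had log2 values of 5.45, 5.46 and 5.43 in YY1bKO and 6.16, 5.96 and 5.63 in control. Every YY1bKO array lay below every control array, with a log2 difference of -0.47 ± 0.15 (limma adjusted p = 0.360). Itpr3, an inositol trisphosphate receptor, had -0.47 ± 0.43, and -0.21 ± 0.45 without YY1bKO replicate 1. Without control replicate 1 it had -0.89 ± 0.32, with an unadjusted p of 0.0358 and an adjusted p of 0.251 by limma. It read 84.2, 172.5 and 124.3 in YY1bKO, against 94.8, 204.8 and 250.6 in control, lowest in replicate 1 of each group. The part of lymphoid tissue in the Itpr3 value was not tested. Trdn, the triadin that anchors release channels, had 0.32 ± 0.32, with 6 probe sets from -0.24 to 0.32, and -0.06 ± 0.12 without YY1bKO replicate 1. Its brightest probe set lay below the lower quartile on 5 of the 6 arrays. Jph1, a junctophilin of muscle, had 0.09 ± 0.09. Atp2a1 had 0.41 ± 0.54, and -0.25 ± 0.11 without YY1bKO replicate 1. Ryr1 had -0.17 ± 0.29, which was -0.42 ± 0.26 without YY1bKO replicate 1 and -0.39 ± 0.28 without control replicate 2. The regulators of the pump did not pass the adjusted threshold either. Sln, sarcolipin, which uncouples the pump in muscle, had -0.10 ± 0.21 in its brighter probe set and 0.03 ± 0.12 in its dimmer one. Without YY1bKO replicate 1 the brighter had -0.35 ± 0.11, with an unadjusted p of 0.0228 and an adjusted p of 0.770 by limma. The dimmer, at 12.4 and 13.6 in the other YY1bKO arrays, lay within the control range of 11.1 to 14.9. Both Sln probe sets lay below the lower quartile on all 6 arrays. Pln, phospholamban, had -0.01 ± 0.20, with 3 probe sets from -0.01 to 0.29, and was at -0.15 ± 0.21 without YY1bKO replicate 1 and -0.08 ± 0.24 without control replicate 2. The brightest Pln probe set lay below the lower quartile on 4 of the 6 arrays.

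**Figure D5:**
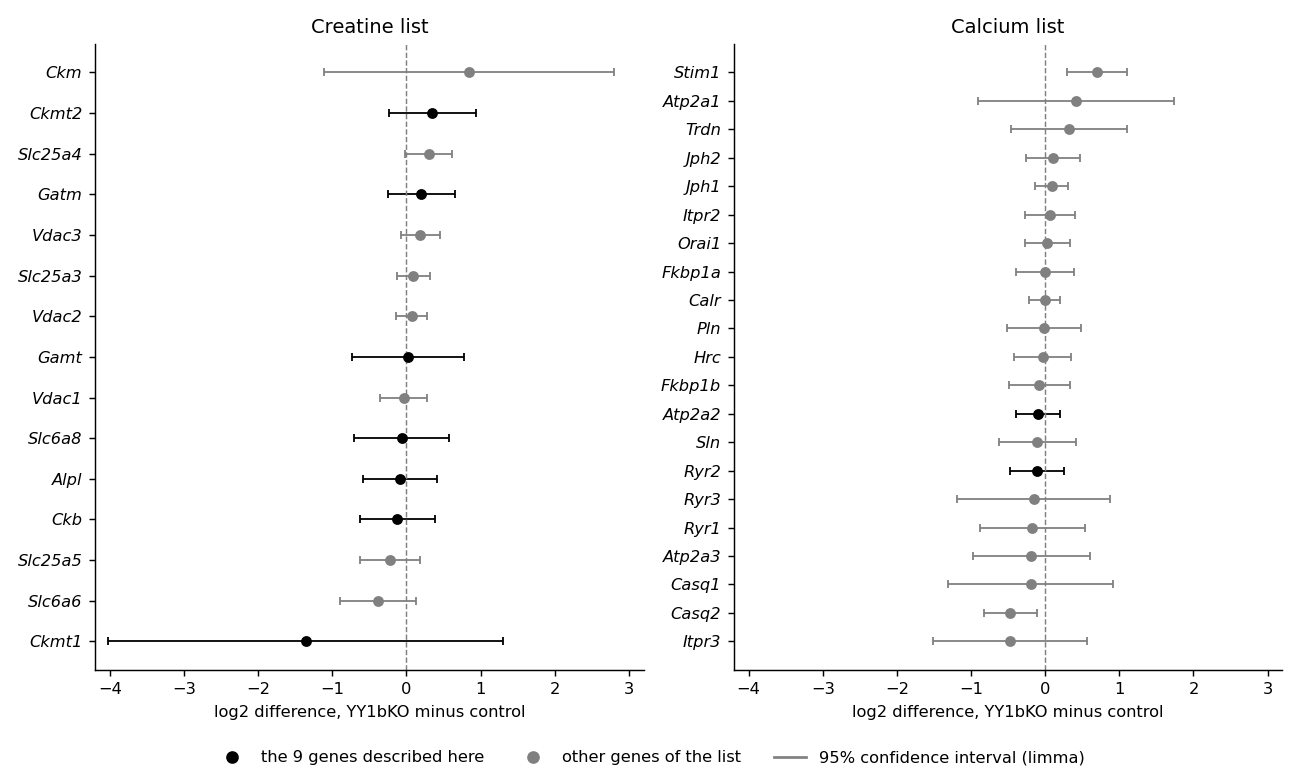
Log2 difference, YY1bKO minus control, with 95% confidence intervals from limma for the measured genes of the wider creatine list (left) and calcium list (right). Black marks the 9 genes described here and grey the others, and the intervals of Stim1 and Casq2 are those that do not hold 0.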

How the data were processed

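Total RNA of 6 fat samples was hybridised as biotin-labelled RNA to Affymetrix arrays, per the labels. The deposited values are probe set intensities that the authors made with RMA, per the submitters' processing notes. The sources used here do not name its version. That these are linear was judged from their range. RMA equalises the arrays' distributions and compresses dim values. The depth is limited by the number of arrays.

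Of 22690 probe sets, 20393 named 1 gene in the platform's annotation table, 691 several and 1606 none. The last 2 kinds were left out. A gene was represented by its probe set of highest mean over the 6 arrays. The comparison of log2(intensity + 1), YY1bKO minus control, used lmFit and eBayes of limma 3.58.1 under R 4.3.3 over all 12394 genes, with Benjamini-Hochberg adjustment at 0.05 and no filter. Within-array differences were tested by exact permutation. The fit was checked on simulated data with independent noise for each gene. Those data hold no shifts in tissue content shared by many genes, so the check does not cover such shifts.

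No pair of arrays was a duplicate (Spearman rho across probe sets 0.957 to 0.994). The labels and table give no batch. The 9 genes and all lists were chosen with earlier results of these data known. The genes named beside them were up to 6 of each wider list by smallest p, with Ckm, Atp2a1, Ryr1, Sln and Pln. They further included the 3 genes nearest in pattern to each of the 2 most variable of the 9 genes, searched among genes above the 25th percentile of mean signal. Yy1, Ucp1, Acta1, Myh4, Adipoq and Cidea were named as well. Alternatives were other pseudocounts, normalizations, filters, probe set summaries, variance models, array weights, a replicate block and leaving out arrays.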

Additional observations from a re-analysis of the deposited data

How the results depend on the processing

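Over 19 alternatives, 0 of 163 values of the 9 genes passed the threshold (limma adjusted p from 0.385 to 0.997), 147 kept their sign and 16 did not. Signs turned with the mean of all probe sets (Atp2a2, 0.20), with array weights (Slc6a8, 0.020) and without control replicate 2 and YY1bKO replicate 1 together, chosen after seeing the data (Gatm -0.059, Gamt -0.25, Slc6a8 0.059, Ckmt1 0.064, Alpl 0.062, Ckmt2 minus Ckm 0.18 and Atp2a2 minus Atp2a1 0.22). Leaving out each array in turn gave log2 differences from -0.26 to 0.35 for Gamt, -0.34 to 0.13 for Slc6a8, -0.31 to 0.062 for Ckb, -2.06 to -0.01 for Ckmt1, -0.27 to 0.12 for Alpl and -0.25 to 0.013 for Ryr2. The within-array differences ran from -0.87 to 0.22 for Ckmt2 minus Ckm, -0.84 to 0.093 for Atp2a2 minus Atp2a1 and -0.15 to 0.34 for Ryr2 minus Ryr1. The cause of these turns was not tested. Of the 9 genes, 6 passed the filter at the 25th percentile of signal and 4 that at the 50th, and those dropped have no value there. Over all genes, 4 passed in the fit reported, 9 with a pseudocount of 16, 2 above the 50th percentile, 12 with robust eBayes, 9 with array weights, 1 without those 2 arrays together and 1 to 5 leaving out single arrays. At an unadjusted p under 0.05, 0 genes of the creatine list were called by limma, 1 with array weights (Slc25a4) and 0 to 2 leaving out single arrays. The calcium list had 2, 1 above the 50th percentile (Stim1) and 1 to 3 leaving out single arrays. With the replicate number as a block, 1 gene of all passed, and 2 of the creatine list (Slc25a4 and Slc6a6) were at an unadjusted p under 0.05. That block left each log2 difference of the 9 genes as it was, for example 0.20 for Gatm. Deviations of same-numbered arrays correlated at 0.61, 0.10 and 0.03, and YY1bKO replicate 2 was closest to control replicate 3 (0.60), so the numbers were not taken to pair the arrays.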
